A study of Laccaria bicolor with 37 samples.

Results

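The genes described here are 55 gene models of the ectomycorrhizal fungus Laccaria bicolor, of 23130 in the table. At 14 days post inoculation (dpi) their transcripts were at least 3 times as abundant near poplar roots as away from them or without a plant. At 3 and at 21 dpi they were less than 2 times as abundant near roots as without a plant. The genes were chosen on CPM, the reads of a gene model scaled to a library total of 1e6 reads. To each group mean 0.5 CPM was added. At 14 dpi the ectomycorrhizal mycelium (EcM) had to be at least 3 times the free-living mycelium (FLM) and at least 3 times the extramatrical mycelium (ExM), with a mean of at least 5 CPM in EcM. The ratio of EcM to FLM had to be below 2 at 3 dpi and at 21 dpi, and 9 gene models were left out by name. The values of EcM and FLM at 3, 14 and 21 dpi and of ExM at 14 dpi therefore chose the genes and are given below as a description without any test. Tests were run only between groups that the choice did not use.

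All libraries came from 1 fungal strain, S238N, grown on a low-sugar agar medium at 20 °C. EcM was all fungal and mixed plant and fungal material within 0.5 cm of a root of Populus tremula x alba 717-1B4, 1 clone kept in vitro. ExM was mycelium of the same co-cultures farther than 0.5 cm from a root, and FLM came from plates without a plant, handled alike. EcM and ExM were sampled at 3, 7, 14 and 21 dpi and FLM on the same days and at the start (T0). Of the 13 groups, 11 had 3 libraries, and ExM at 14 dpi and FLM at T0 had 2. EcM is a mixture of hyphae on, in and beside the root, so a higher transcript level per hypha and a larger share of hyphae of 1 kind cannot be told apart in it. Nothing in the labels says that replicates came from separate plates, so p-values measure the spread between these samples.

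An ectomycorrhiza is a symbiotic organ in which hyphae wrap a short lateral root in a mantle and grow between its outer cells as the Hartig net. Across that interface the fungus passes nitrogen, phosphorus, potassium and metals to the plant and receives sugar in return. Building it calls on secreted proteins, enzymes that remodel the fungal cell wall, transporters, and enzymes that handle oxidants and plant compounds, and those roles order the account below. Functions are named from the words the study tables or the reference gene list give. An annotation, which for some genes such as 489146 names no function, was found for 37 of the 55 gene models, and 3 had a symbol. Those tables partly list genes picked for a high level in EcM at 14 dpi, so the share of annotated genes says nothing about these 55.

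Library totals ranged from 13.82 to 36.82 M reads, where 3 reads correspond to at most 0.217 CPM. Of the transcripts that mark L. bicolor ectomycorrhiza, MiSSP17, a hydrophobin, a gti1/pac2 domain protein and MiSSP8 were each higher in EcM than in FLM and ExM at 14 dpi. MiSSP8 was not near 0 elsewhere, with 2.60 CPM in FLM and 1.15 CPM in ExM at 21 dpi against 1.02 CPM in EcM at 7 dpi, and the hydrophobin was at 0.0952 CPM in EcM at 3 dpi. The small secreted protein MiSSP17 had a mean of 11.9 CPM in EcM at 14 dpi, 0.0779 CPM in FLM and 0.224 CPM in ExM. Some libraries stood apart from others of their group. FLM at 21 dpi replicate 2 was at 0.5 times or less of both other replicates for 13 of the 55 genes, against 0.941% of the 10519 gene models with at least 5 CPM in EcM at 14 dpi. Of the pair of T0 libraries, replicate 1 was at least 2 times replicate 2 for 17 of the 55 and replicate 2 at least 2 times replicate 1 for 2, whereas 6.65% of those gene models were 2 times apart in either direction. Without FLM at 21 dpi replicate 2, 52 of the 55 genes still met every criterion. Over all libraries that entered the choice, leaving out 1 kept 43 to 55 of them, with 43 without EcM at 14 dpi replicate 2 and 45 without FLM at 21 dpi replicate 3.

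Together the 55 genes took 0.766% ± 0.064 (SD, n = 3) of all counts in EcM at 14 dpi, 0.149% ± 0.007 (n = 3) in FLM and 0.165% ± 0.025 (n = 2) in ExM of the same day. At 7 dpi the share was already 0.568% ± 0.074 in EcM, and it was 0.525% ± 0.076 in ExM and 0.356% ± 0.046 in FLM (n = 3 each). The sum at 7 dpi rested largely on 2 genes, 295829 and 399271, which supplied 64.9% of it in EcM, 73.5% in ExM and 65.1% in FLM. In EcM at 14 dpi they supplied 35% of it. The median over the genes of the mean level in EcM, which those 2 do not set, was 6.99 CPM on day 3, 14.6 CPM on day 7, 41.7 CPM on day 14 and 19.6 CPM on day 21. In FLM the same median stayed between 7.78 and 12.1 CPM from 3 to 21 dpi. Per transcript length, the levels in EcM at 14 dpi spanned 1.86 RPKM (reads scaled by transcript length and library) for the WD40 repeat protein 391498 to 2532 RPKM for the protease inhibitor 295829. The coefficient of variation among the 3 EcM libraries of 14 dpi had a median of 20.9% and reached 50.2%.

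The median ratio of EcM to FLM was 0.929 on day 3, 1.46 on day 7, 4.57 on day 14 and 1.52 on day 21. At 14 dpi it ran from 3.00 to 16.5, and at 21 dpi from 0.491 to 2.00. The ratio of EcM to ExM at 21 dpi was not limited by the choice. Its median was 1.33, and it was 2 or more in 13 of the 55. In each of the 55, all EcM libraries of 14 dpi lay above all FLM and above all ExM libraries of that day, which held for 20.4% and 24.8% of the 10519 gene models and follows closely from the choice. At 21 dpi all EcM libraries still lay above all FLM libraries in 28 of the 55 (16.2% of the 10519), and in 39 the EcM libraries of 14 dpi lay above those of 21 dpi (34.6%). The criteria cut through a continuum at each limit. On the ratio to FLM at 14 dpi, 670171 lay just inside at 3.00 and 588400 just outside at 2.91, and on the ratio to ExM 617208 was inside at 3.02 and 313372 outside at 2.97. At 21 dpi 323127 was inside at 1.999 and 187166 outside at 2.001. At 3 dpi the nearest inside was 600334 at 1.83 and the nearest outside 697885 at 2.05, and on the level in EcM they were 330560 at 5.07 CPM and 596686 at 4.83 CPM. The 55 are one end of a larger set. Another 76 gene models met the same criteria at 3 and 14 dpi with a ratio of 2 or more at 21 dpi.

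**Figure D1:**
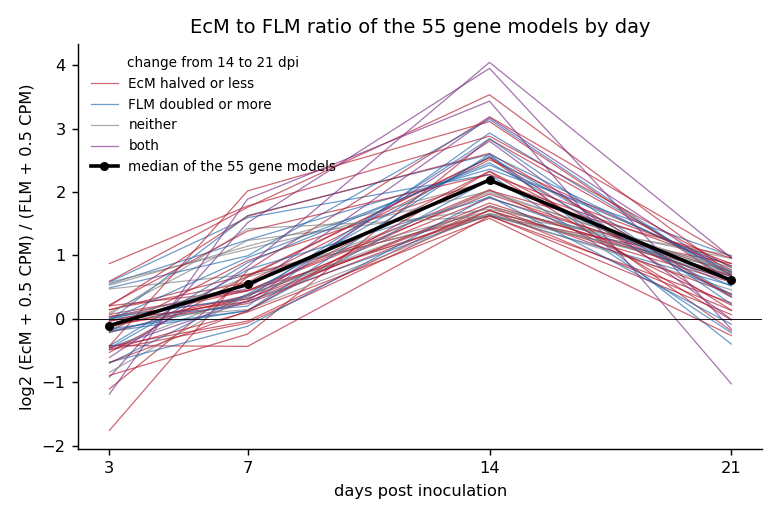
Log2 ratio of EcM to FLM (group mean CPM plus 0.5) at 3, 7, 14 and 21 days post inoculation, 1 line per gene model, coloured by what changed between 14 and 21 dpi, with the median of the 55 in black. The values at 3, 14 and 21 dpi were fixed by the choice of genes; at 7 dpi, which was not used, the median ratio was 1.46 and 50 of 55 lines lay above 0.

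The working name of these genes, a transient induction at 14 dpi, described some of them and not others. For 46 of the 55, EcM at 14 dpi was the group with the highest mean. The criteria favour that, and the share over all gene models was not counted, so nothing is read from it. All 3 EcM libraries of 14 dpi lay above each of the other 34 libraries for 24 genes, which held for 1.87% of the 10519 gene models. The ratio to FLM had come down by 21 dpi in different ways. In 26 genes the level in EcM at 21 dpi was at 0.5 times or less of that at 14 dpi while FLM was at less than 2 times its own. In 14 genes FLM was at 2 times or more its level of 14 dpi while EcM kept more than 0.5 times its own. A further 5 genes showed both, and 10 showed neither, with a median ratio to FLM of 3.29 at 14 dpi and 1.67 at 21 dpi. ExM was at 2 times or more its level of 14 dpi in 17 of the 55, 10 of them among the 14. A halving in EcM was seen in 2.52%, a doubling in FLM in 1.56% and a doubling in ExM in 1.41% of the 10519 gene models. Since the criteria require the ratio to come down, nothing is read from these shares. Without FLM at 21 dpi replicate 2 the 4 counts were 23, 17, 8 and 7. The genes are therefore described as higher in EcM at 14 dpi, not as transient, unless their EcM level was halved.

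**Figure D2:**
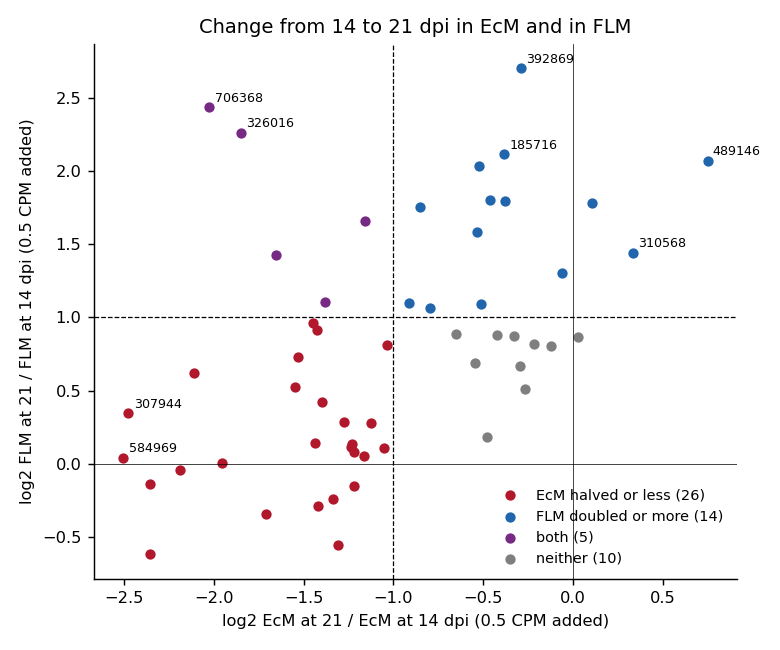
Change of the group mean from 14 to 21 dpi in EcM (horizontal) and in FLM (vertical), as log2 ratios with 0.5 CPM added, 1 point per gene model. Dashed lines mark a halving in EcM and a doubling in FLM, which divide the 55 gene models into 26, 14, 5 and 10. Genes with the largest changes are labelled by their identifiers, such as 489146, which in EcM at 21 dpi was at 1.68 times its level of 14 dpi.

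A protease inhibitor was the most abundant of the 55 per transcript length. This gene, 295829, is a counterpart of cospin, a serine protease inhibitor known from the mushroom Coprinopsis cinerea. It stood at 1267, 1334 and 1835 CPM in EcM at 14 dpi, at 254, 317 and 186 CPM in FLM and at 180 and 407 CPM in ExM. It was not low before that, since EcM had 875, 1834 and 956 CPM at 7 dpi and ExM of that day 1452, 961 and 1128 CPM. At 21 dpi EcM was at 368, 483 and 772 CPM, and FLM was spread from 43.98 to 1111 CPM. The EcM levels of 7 and 14 dpi thus overlapped, and the difference between the mycelia at 14 dpi came with a lower level in FLM and ExM than at 7 dpi. Gene 326016 belongs to the clitocypins, mushroom inhibitors of cysteine proteases. It had 290, 412 and 466 CPM in EcM at 14 dpi against 21.97, 25.6 and 26.5 CPM in FLM and 23.8 and 46.5 CPM in ExM, and EcM at 14 dpi exceeded every other library. At 3 dpi it was at 5.99, 4.04 and 3.17 CPM in EcM. By 21 dpi EcM had come down to 93.6, 103 and 126 CPM, FLM replicates stood at 224, 20.0 and 117 CPM and ExM at 82.2, 138 and 116 CPM. Of 15 gene models annotated as protease inhibitors, 3 met the criteria of 14 dpi, these 2 and 1 of the 9 left out by name. Of all 23130 gene models, 153 met them, those 9 not counted. The annotations come partly from tables that picked genes for a high level in EcM, so nothing is read from that difference.

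Among the genes without annotation were some of the highest. The level of 399271 in EcM at 14 dpi was 1209, 1059 and 1348 CPM, and in FLM it was 208, 253 and 158 CPM. Its peak was a week earlier in every mycelium, with 2386, 2711 and 2305 CPM in EcM, 2969, 2259 and 2812 CPM in ExM and 1660, 1698 and 1317 CPM in FLM. The 7 dpi values of EcM and ExM overlapped. Gene 674196 had the largest ratio to FLM at 14 dpi, 16.5, from 411, 449 and 506 CPM in EcM and 23.8, 35.1 and 22.3 CPM in FLM. It too was high in all mycelia at 7 dpi, with 221 to 462 CPM in EcM, 190 to 288 CPM in ExM and 133 to 256 CPM in FLM. None of 295829, 399271 and 674196 was called in EcM against FLM or ExM at 7 dpi. The unannotated 310568 was at 172, 231 and 169 CPM in EcM at 14 dpi and at 242, 247 and 232 CPM at 21 dpi, so its EcM level did not come down. FLM of that gene went from 60.2 to 61.5 CPM at 14 dpi to 117 to 221 CPM at 21 dpi. Gene 706368 had a ratio of 10.8 at 14 dpi (28.8, 18.3 and 18.8 CPM in EcM, 0.654, 2.94 and 1.15 CPM in FLM) and of 0.491 at 21 dpi, the lowest of the 55. That low value rested on FLM libraries of 20.4, 1.39 and 10.5 CPM.

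**Figure D3:**
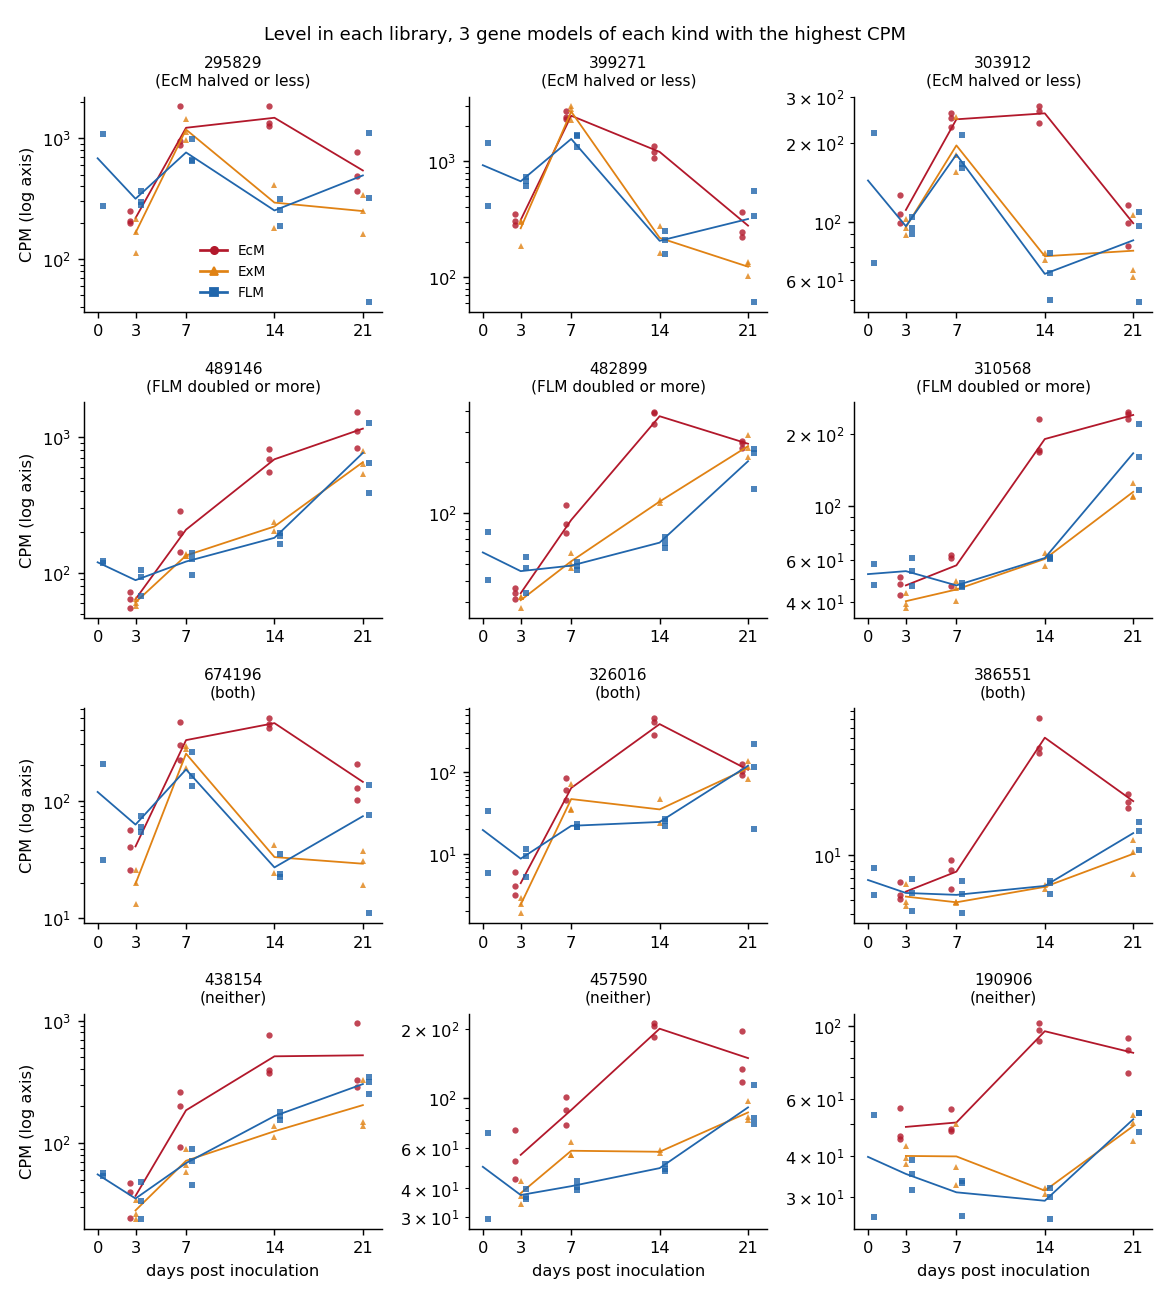
Level in CPM (log axis) of the 3 gene models of each kind with the highest CPM in EcM at 14 dpi, in every library, by days post inoculation, with lines through the group means. From the top row to the bottom row, the kinds are EcM at 0.5 times or less at 21 dpi, FLM at 2 times or more, both, and neither. In all 12 panels the EcM points of 14 dpi lie above the FLM and ExM points of that day, while 295829, 399271, 303912 and 674196 were already high in all 3 mycelia at 7 dpi.

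Transporters made up 7 of the 55. The K+ uptake permease 482899, which imports potassium, had the highest level of them per transcript length, 168 RPKM in EcM at 14 dpi. In CPM it stood at 333, 392 and 387 CPM in EcM that day against 62.0, 66.2 and 72.3 CPM in FLM and 120 and 114 CPM in ExM. Its EcM level was still 240 to 266 CPM at 21 dpi, when FLM had reached 139, 239 and 226 CPM and ExM 288, 212 and 241 CPM. At 21 dpi the ExM and EcM libraries overlapped. The ammonium transporter LbAMT1.2 (190906) had 89.8, 102 and 97.4 CPM in EcM at 14 dpi, 30.1, 25.7 and 31.9 CPM in FLM and 30.7 and 32.1 CPM in ExM. It was still above all FLM libraries at 21 dpi, at 71.7, 84.5 and 92.1 CPM against 47.4 to 54.1 CPM.

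A pair of metal transporters showed a sharper course. CDF-B (307944), a cation diffusion facilitator of the family that moves zinc and other divalent metals out of the cytosol, had 21.3, 50.7 and 27.5 CPM in EcM at 14 dpi and at most 3.15 CPM in FLM and 2.95 CPM in ExM of that day. At 21 dpi EcM was down to 6.54, 4.60 and 5.52 CPM, a ratio of 0.18 to 14 dpi, and FLM was at 2.72 to 3.48 CPM. ZIP-A (180140), of the family that carries zinc and iron into the cytosol, had 12.5, 27.1 and 20.5 CPM in EcM at 14 dpi, with FLM at 5.35 to 5.59 CPM and ExM at 3.85 and 5.28 CPM. In all other groups ZIP-A lay between 3.16 and 8.51 CPM, so 14 dpi in EcM was the single group in which it was high. The other members of these families were looked up after those values were seen. Of 6 CDF gene models with a symbol, only CDF-B had a ratio to FLM above 1 at 14 dpi, and the other 4 ZIP gene models ranged from 0.763 to 1.15. Among the ammonium transporters, LbAMT1.1a, LbAMT1.1b and LbAMT2.1 had ratios of 1.11, 0.951 and 0.983. LbAMT2.3c had 17.6 and kept 9.20 at 21 dpi. LbAMT2.2, one of the 9 left out by name, had 3.61 at 14 dpi and 1.42 at 21 dpi, from 3.20 CPM in EcM at 14 dpi.

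The remaining transporters were 187852 and 446883 of the major facilitator superfamily, whose substrates vary, and 695067, related to nucleotide-sugar transporters. Gene 187852 was at 47.3, 42.3 and 44.6 CPM in EcM at 14 dpi and at 10.7 to 12.9 CPM in FLM and ExM, and 446883 at 11.3, 14.9 and 16.9 CPM against 1.70 to 2.80 CPM. Both were at 0.482 times that or less in EcM at 21 dpi. Gene 695067 was at 33.8, 38.5 and 22.7 CPM in EcM at 14 dpi. ExM at 21 dpi had 50.6, 19.5 and 16.3 CPM, so only its replicate 1 lay above those EcM libraries and the others lay below them. Of 207 gene models listed as transporters, 26 met the criteria of 14 dpi. Besides the 7 described, 13 of those had a ratio to FLM of 2 or more at 21 dpi and below 2 at 3 dpi. A ratio of 2 or more at 3 dpi set aside 5, and 1 was left out by name. Beside the 153 of all 23130 gene models, nothing is read from the count of transporters.

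Enzymes that handle oxidants and reactive compounds formed another group of 7. The glutathione S-transferase 438154, which conjugates glutathione to reactive molecules, was at 372, 763 and 398 CPM in EcM at 14 dpi, 180, 154 and 165 CPM in FLM and 137 and 113 CPM in ExM. Its EcM level at 21 dpi was just as high (327, 948 and 287 CPM) while FLM had 253 to 344 CPM, so the groups overlapped by then. The transferase 596678 had 31.9, 48.6 and 51.5 CPM in EcM at 14 dpi against 5.84 to 10.1 CPM in FLM. The membrane-associated relative 379253 had 52.4, 102 and 54.8 CPM against 11.3 to 21.8 CPM. The FMN-binding NADPH dehydrogenase 457590 stood at 184, 211 and 205 CPM in EcM and at 47.7 to 51.1 CPM in FLM at 14 dpi. The short-chain dehydrogenase 472925 had a ratio of 8.86, from 120, 183 and 112 CPM in EcM and 12.5 to 19.5 CPM in FLM, and its FLM libraries of 21 dpi were at 75.2, 12.4 and 103 CPM. Replicates 1 and 3 of FLM were thus near the level of EcM at 21 dpi, 75.8 to 112 CPM, and replicate 2 was far below it.

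Both heme peroxidases differed in course. The peroxidase 191903, of the family that includes the lignin-active peroxidases of wood-decay fungi, had 29.7, 61.2 and 50.3 CPM in EcM at 14 dpi and 15.7 to 21.2 CPM at 21 dpi, with 8.23 to 15.9 CPM in FLM on both days. The dye-decolorizing peroxidase 392869 had 57.8, 49.3 and 18.01 CPM in EcM at 14 dpi against 5.79 to 7.00 CPM in FLM, but its highest group was FLM at 21 dpi, with 44.98, 19.4 and 70.5 CPM. The 3 cytochromes P450, heme enzymes that oxidise small lipophilic compounds, had their highest group in EcM at 14 dpi and were at 0.384 or less of that in EcM at 21 dpi. Gene 386551 was at 47.2, 81.3 and 51.2 CPM against 5.43 to 6.65 CPM in FLM and 5.90 and 6.30 CPM in ExM, a ratio of 9.03 to FLM. Genes 393581 and 396290 had ratios of 3.41 and 3.27. Of 49 gene models listed as P450, 7 met the criteria of 14 dpi. Beside the 153 of all 23130 gene models, nothing is read from that count either.

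Cell wall enzymes and a lectin came next by role. The GH16 enzymes 619909 and 620005, of a family that acts on beta-glucans, had 46.7, 68.5 and 51.9 CPM and 31.1, 41.8 and 34.02 CPM in EcM at 14 dpi. In every other group their libraries stayed at 7.89 to 27.2 CPM for the former and at 5.82 to 13.85 CPM for the latter. Their transcripts are of the same length, 999 bases, and reads could map to several transcripts, so reads may be shared between them. The same holds for other multigene families here. The CE16 esterase 304776, of a family that removes acetyl groups from carbohydrates, had 40.2, 53.1 and 45.3 CPM in EcM at 14 dpi and 11.04 to 11.97 CPM in FLM. The fruit body lectin 185716, a sugar-binding protein, had 65.9, 107 and 100 CPM in EcM against 14.5 to 21.2 CPM in FLM at 14 dpi. By 21 dpi FLM stood at 103, 51.4 and 89.4 CPM and overlapped EcM at 60.1 to 77.7 CPM.

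Of the 5 gene models listed as small secreted proteins, the leucine-rich repeat protein 584969 had 22.1, 38.4 and 35.5 CPM in EcM at 14 dpi against 3.15 to 3.37 CPM in FLM and 2.90 and 3.90 CPM in ExM. It had not been silent before, with 12.5 to 21.8 CPM in EcM at 3 dpi, FLM at 27.6, 5.28 and 35.4 CPM and T0 at 39.01 and 4.40 CPM. The lysozyme-like 307590 (family GH24) had 12.7, 11.3 and 8.26 CPM in EcM at 14 dpi and at most 0.905 CPM in FLM. Its highest group was T0, at 25.3 and 44.5 CPM, and FLM at 3 dpi replicate 2 had 58.5 CPM beside 8.41 and 7.67 CPM. For both genes the FLM libraries of 3 dpi and of T0 were far apart, whereas at 14 dpi EcM and FLM did not overlap. The thaumatin-like 192587 had 29.4, 43.1 and 32.5 CPM and the unannotated 600246 had 29.5, 34.7 and 25.5 CPM in EcM at 14 dpi, each at least 4.56 times FLM. MiSSP7.6 (617208) was at 8.85, 8.47 and 11.8 CPM in EcM at 14 dpi, against 0.795, 1.36 and 1.35 CPM in FLM, and at 20.9, 2.04 and 8.42 CPM in EcM at 7 dpi. ExM at 21 dpi replicate 1 reached 18.1 CPM for that gene while replicates 2 and 3 were at 4.08 and 4.45 CPM.

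Other enzymes included the O-methyltransferase 303912, at 266, 239 and 277 CPM in EcM at 14 dpi and 50.02 to 75.8 CPM in FLM. Its EcM libraries of 7 dpi overlapped those of 14 dpi, at 231 to 261 CPM. The oxalate decarboxylase 469092, which splits oxalic acid, had 45.6, 56.3 and 48.8 CPM in EcM at 14 dpi against 5.85 to 7.37 CPM in FLM and 6.64 and 7.47 CPM in ExM, and was back at 9.64 to 11.9 CPM in EcM at 21 dpi. It was also elevated in FLM at 7 dpi (20.4 to 28.3 CPM) and T0 (30.3 and 19.9 CPM). The predicted exonuclease 665393 had 49.1, 68.5 and 69.1 CPM in EcM and 7.73 to 9.15 CPM in FLM at 14 dpi, and FLM at 21 dpi was spread from 10.04 to 42.6 CPM. The PBP domain protein 608341 was the most even of the 55 in EcM at 14 dpi, at 70.2, 70.3 and 70.7 CPM, against 17.8 to 21.6 CPM in FLM. Gene 489146, with a domain of unknown function (DUF4243), had 686, 806 and 553 CPM in EcM at 14 dpi and 161 to 195 CPM in FLM. It was higher still at 21 dpi, at 822 to 1516 CPM in EcM, 384 to 1259 CPM in FLM and 529 to 784 CPM in ExM.

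The libraries of 7 dpi, which had no part in the choice, were used to ask whether the genes already differed between mycelia a week before. In EcM against FLM, 16 of the 55 were called higher by edgeR's quasi-likelihood test at a Benjamini-Hochberg adjusted p under 0.05 and a log2 fold change of at least 1, against 3.68% of the 15533 gene models tested. None was called lower, against 0.245% of all tested, nor was any by DESeq2. At an unadjusted p under 0.05 there were 33 higher and 0 lower. The share of all tested at that unadjusted cut was not counted, here or in the comparisons below, so nothing is read from such counts. All 55 passed the filter on low counts. Their median log2 fold change was 0.69, beside 0.00 over all gene models tested, and 53 of 55 were positive. In 30 genes all EcM libraries of 7 dpi lay above all FLM libraries, which held for 12% of the 10519 gene models. Without EcM at 7 dpi replicate 1 the count was 9.

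The largest difference was in the unannotated 600334, at 4.13, 7.89 and 3.71 CPM in EcM and 1.57, 1.24 and 0.706 CPM in FLM at 7 dpi (log2 fold change 2.32 ± 0.35 SE, adjusted p = 5e-05). The leucine-rich repeat protein 584969 followed, at 13.1, 25.6 and 21.7 CPM against 3.54, 6.05 and 4.18 CPM (2.26 ± 0.56, adjusted p = 0.008). CDF-B was higher by 2.12 ± 0.28 (adjusted p = 1.1e-05), at 7.02, 9.10 and 8.32 CPM against 1.90 to 2.17 CPM. None of these 3 genes had overlapping libraries, and their calls held with each library left out. The other genes called higher included the lectin 185716 (1.81 ± 0.28), the peroxidase 392869 (1.87 ± 0.47), the dehydrogenase 457590 (1.24 ± 0.24), the transferases 438154 (1.57 ± 0.45) and 596678 (1.17 ± 0.25) and the permease 482899 (1.02 ± 0.21), and the last 3 lost their call in 3, 2 and 3 of the 6 fits without 1 library. LbAMT1.2 was higher by 0.84 ± 0.18 (adjusted p = 0.0026), short of the fold required. For MiSSP7.6 the difference of 1.97 ± 0.59 (adjusted p = 0.026) lost its call in 4 of the 6 fits without 1 library. Its log2 fold change ranged from 0.91 to 2.45 over those fits, and the libraries overlapped.

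In EcM against ExM at 7 dpi, 4 of the 55 were called higher, against 0.29% of all tested, and none lower (0.0129% of all tested, 0 of the 55 by DESeq2 and 0 at an unadjusted p under 0.05). In 25 genes all EcM libraries lay above all ExM libraries, against 5.75% of the 10519 gene models. The 4 called higher included the von Willebrand factor domain protein 315353 (1.83 ± 0.37, adjusted p = 0.0079) and CDF-B (1.59 ± 0.27, adjusted p = 0.0017). The other called genes were 600334 (1.57 ± 0.33, adjusted p = 0.013) and the lectin 185716 (1.14 ± 0.27, adjusted p = 0.035). All 4 were also called higher than FLM. CDF-B had 2.30, 3.36 and 2.52 CPM in ExM, close to its FLM level, and its call held with each library left out. The lectin lost its call in 5 of the 6 fits without 1 library, and 315353 and 600334 lost theirs in 3 each. The count was 1 without EcM replicate 2, 2 without ExM replicate 2 and 1 without ExM replicate 3.

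In ExM against FLM at 7 dpi, 2 genes were called higher, against 1.97% of all tested, and none lower (0.0515% of all tested, 0 of the 55 by DESeq2 and 0 at an unadjusted p under 0.05). They were the unannotated 706368, at 12.8, 4.36 and 7.49 CPM in ExM and 1.88 to 2.496 CPM in FLM (1.99 ± 0.56, adjusted p = 0.035), and 303536, at 11.1, 9.63 and 7.71 CPM against 3.10 to 5.30 CPM (1.42 ± 0.37, adjusted p = 0.022). The share of the 55 was close to the background. Neither call was stable, since the count was 0 without ExM replicate 1 or 3 or FLM replicate 1 or 3, and 1 without ExM replicate 2 or FLM replicate 2. These 3 comparisons at 7 dpi share libraries with each other.

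**Figure D4:**
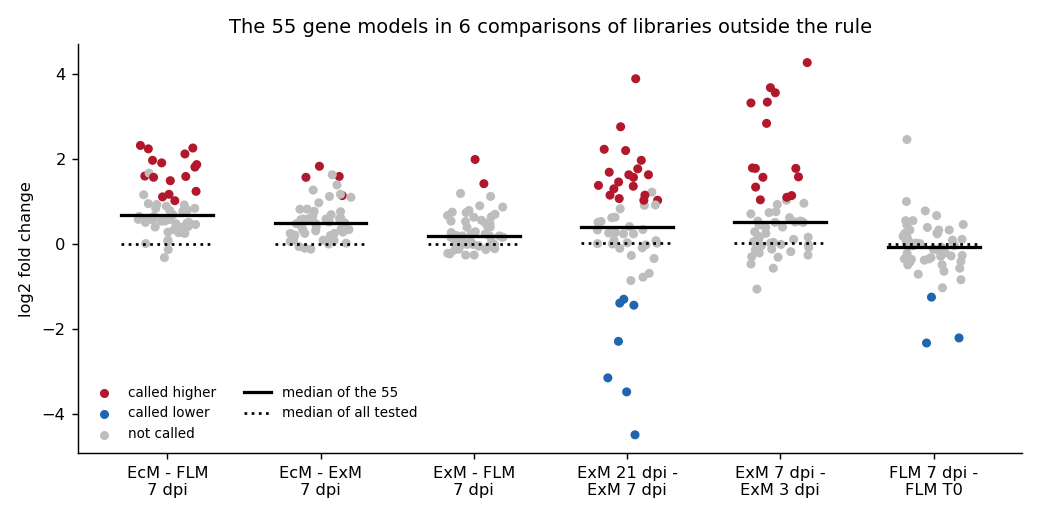
Log2 fold change of each of the 55 gene models (points) in 6 comparisons between groups that did not choose them, first-named group over the second, with genes called by edgeR's quasi-likelihood test in red (higher) or blue (lower). Black lines are the median of the 55 and dotted lines the median of all 15533 gene models tested; in EcM against FLM at 7 dpi the former was 0.69, with 16 genes called.

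The course of the same genes away from the root was read in ExM. From 3 to 7 dpi, 15 of the 55 were called higher, against 2.09% of all tested, and none lower (1.05% of all tested, 0 of the 55 by DESeq2 and 1 at an unadjusted p under 0.05). The clitocypin 326016 had the largest rise, from 2.44, 1.88 and 2.89 CPM to 71.1, 34.7 and 35.4 CPM (4.27 ± 0.69, adjusted p = 5.8e-05). It was followed by 674196, from 13.4 to 25.8 CPM to 190 to 288 CPM (3.68 ± 0.65, adjusted p = 0.00018). The protease inhibitor 295829 rose by 2.84 ± 0.67 (adjusted p = 0.0029) and 399271 by 3.34 ± 0.50 (adjusted p = 2.3e-05), both in mycelium farther than 0.5 cm from a root. MiSSP7.6 rose from 0.543, 0.564 and 0.234 CPM to 4.98, 5.17 and 3.43 CPM (3.32 ± 0.78, adjusted p = 0.0024). Means in FLM, without a plant, were also higher at 7 than at 3 dpi for 326016 (22.15 against 8.78 CPM) and 295829 (763 against 315.5 CPM). For 399271 they were 1558 against 672 CPM. FLM at 3 dpi was used in the choice, so this was not tested.

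From 7 to 21 dpi in ExM, 19 genes were called higher and 7 lower, against 4.13% and 7.19% of all tested, and the median log2 fold change was 0.41 beside 0.03. The calls were then counted by the kinds named above. Of the 14 genes in which FLM alone had doubled from 14 to 21 dpi, 12 were called higher in ExM and none lower, while of the 26 with a halved EcM level alone, 2 were called higher and 6 lower. Of the 5 with both, 2 were called higher and 1 lower, and of the 10 with neither, 3 higher and none lower. That tally is a description, since the kinds were formed after values were seen. Of the 12 calls, that of 472925 was lost in all 6 fits without 1 library and that of 638622 in 4. The number of genes in which FLM alone doubled ranged from 11 to 17 with 1 library left out. The lipase-annotated 297969 rose most, from 1.17, 0.602 and 1.38 CPM to 16.6, 18.1 and 15.4 CPM (3.89 ± 0.42, adjusted p = 2.4e-08). ExM at 21 dpi was its highest group, above EcM at 14 dpi with 3.18, 6.44 and 7.04 CPM. The lectin 185716 rose to 51.5, 78.0 and 53.0 CPM (2.76 ± 0.28, adjusted p = 1.4e-08), the permease 482899 by 2.20 ± 0.21 (adjusted p = 5.4e-09) and 489146 by 2.23 ± 0.32 (adjusted p = 4e-06).

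The genes that fell in ExM from 7 to 21 dpi included those with a high level in all mycelia at 7 dpi. Gene 399271 fell from 2259 to 2969 CPM to 137, 130 and 104 CPM (log2 fold change -4.49 ± 0.53, adjusted p = 2.3e-07), and the lysozyme-like 307590 from 8.31, 8.53 and 11.4 CPM to 1.75, 0.366 and 0.681 CPM (-3.48 ± 0.73, adjusted p = 0.00035). Genes 674196 (-3.15 ± 0.64), 295829 (-2.29 ± 0.66), 670171 (-1.44 ± 0.39), the methyltransferase 303912 (-1.39 ± 0.31) and the oxalate decarboxylase 469092 (-1.30 ± 0.23) were also called lower. Of these 7, 5 had risen in ExM from 3 to 7 dpi: 295829, 303912, 399271, 469092 and 674196. Both comparisons use the ExM libraries of 7 dpi, so a high value in those libraries enters both.

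In FLM at 7 dpi against T0, no gene was called higher (1 by DESeq2, 3 at an unadjusted p under 0.05) and 3 were called lower, against 0.27% and 0.567% of all tested. They were 584969 (-2.33 ± 0.60, adjusted p = 0.018), 307590 (-2.21 ± 0.59, adjusted p = 0.021) and the thaumatin-like 192587 (-1.25 ± 0.37, adjusted p = 0.034). Without T0 replicate 1 the value of 584969 was 0.04 and 4 genes were called higher, and the count of lower calls was 0 without FLM replicate 1 and 1 without FLM replicate 3. T0 had only 2 libraries, which were far apart for these genes. Over all 6 comparisons, 17 of the 55 genes were called in none. The matching share of all gene models tested was not counted, so nothing is read from that number.

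Of the 76 gene models that kept a ratio of 2 or more at 21 dpi, 39 were called higher in EcM than FLM at 7 dpi (3.68% of all tested, median log2 fold change 1.19) and 17 higher in EcM than ExM (0.29% of all tested, median 0.82). Whether they differed from the 55 was not tested. Of the annotation lists, 34 of 199 transporters tested, 39 of 229 small secreted proteins, 44 of 239 other oxidoreductases, 7 of 48 cytochromes P450 and 5 of 15 protease inhibitors were called higher in EcM than FLM at 7 dpi, against 3.68% of all tested, with median log2 fold changes of 0.18, 0.27, 0.16, 0.17 and 0.80. Of the small secreted proteins, 2 were called lower, against 0.245% of all tested. The lists hold only gene models with words in the study tables or a symbol. Those tables partly picked genes for a high level in EcM, so nothing is read from list counts set beside all gene models. None of the 55 was annotated as a transcription factor, kinase or phosphatase, laccase or carbonic anhydrase, and 18 had no annotation. Of the 123 gene models listed as transcription factors, 1 met the criteria of 14 dpi, and of the 143 kinases and phosphatases none did. Of 10 laccases and multicopper oxidases 2 met them, and of 9 carbonic anhydrases 1. Nothing is therefore read from the absence of these lists among the 55. At 7 dpi, 17 of 118 transcription factors and 16 of 135 kinases and phosphatases tested were called higher in EcM than FLM, against 3.68% of all tested.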

How the data were processed

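RNA from the fungal or mixed plant and fungal material of 37 samples was sequenced as stranded mRNA libraries. Per the study's methods the authors trimmed the reads, mapped them to the L. bicolor v2 reference transcripts with CLC Genomics Workbench, allowing several hits per read, and deposited raw read counts and RPKM values per gene model. The file headers do not say whether the counts are of unique or of all mapped reads. Submitters' processing notes name DESeq2. CPM here are counts divided by the library total. Levels of different genes are compared per length in the deposited RPKM, and CPM served to choose genes and to give shares of all counts.

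Comparisons used edgeR 4.0.16 (R 4.3.3) on the counts: TMM library sizes, filterByExpr (minimum count 10, minimum total 15; 15533 gene models kept), 1 coefficient per group over all 37 libraries and a robust quasi-likelihood fit, with p-values adjusted over all gene models tested. On simulated counts the fit was tested before use. Alternatives were DESeq2 1.42.0, median-of-ratios size factors, no filter, only the libraries compared, a replicate block and each library left out.

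The genes, lists and tests were chosen with earlier results of these data known. Named in the text were the 10 with the highest CPM in EcM at 14 dpi, the 8 with the largest ratio to FLM, up to 20 annotated genes, the 2 largest called changes in each direction of each comparison, and the genes nearest each threshold. Others were added after their values were seen. No pair of libraries of the same group agreed within sampling noise. Pairs from different groups were not checked for this.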

Additional observations from a re-analysis of the deposited data

How the results depend on the processing

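Counts of genes called and medians kept their direction under most settings. With each library left out in turn, genes called higher ranged from 9 to 17 in EcM against FLM at 7 dpi, from 1 to 4 in EcM against ExM, from 0 to 1 in ExM against FLM, from 15 to 18 in ExM at 21 against 7 dpi and from 12 to 14 in ExM at 7 against 3 dpi. In FLM at 7 dpi against T0, 0 to 4 were called higher and 0 to 3 lower, the median ranged from -0.35 to 0.23, and 584969 ranged from -3.19 to 0.04, the positive value without T0 replicate 1. The median in ExM at 21 against 7 dpi ranged from 0.24 to 0.48. With only the compared libraries in the fit, 1 gene was called lower in ExM at 7 against 3 dpi and 0 in FLM at 7 dpi against T0. DESeq2 called 1 gene higher in the latter. Asking for a ratio of 4 at 14 dpi left 24 genes, leaving out 1 library gave 46 to 61 genes by the criteria, and genes with both kinds of change ranged from 4 to 8. Of the 55, 47 met the criteria on TMM-scaled CPM and 41 on group medians. Correlations between the deviations of same-numbered replicates ranged from -0.448 to 0.351. With groups of 2 or 3 libraries they cannot show whether the numbers pair the samples. The fit behind the calls did not pair them. With the replicate block, 16 genes were called higher in EcM against FLM and 3 in EcM against ExM at 7 dpi. The causes of these shifts were not tested. Groups of 2 or 3 libraries limit all comparisons.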
